A study of Mus musculus with 6 samples.

Results

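The genes described are 41 mouse genes of mitosis and the G2/M transition, taken by name for their known roles and grouped by function: 11 mitotic cyclins and kinases with their regulators, 6 kinesins, 9 centromere and checkpoint genes, 4 of anaphase and ubiquitin ligation, 4 of cytokinesis, 3 of spindle assembly and 4 of chromosome structure and transcription. Probes were matched by the current or an earlier symbol (Cdk1 was Cdc2a), and no measured value is part of that rule. The members and the comparison lists were, however, chosen with earlier results of these data known. Counts set beside the shares of all genes are therefore descriptions and not tests. All 41 had at least 1 probe on the array, out of 22220 genes that could be named, and 40 of them were among the 14420 genes that could be tested. The cells were G1E-ER-GATA-1, Gata1-null erythroid precursors of the mouse in which an estrogen-responsive GATA-1 fusion protein (ER-GATA-1) is activated by β-estradiol and drives red cell maturation. In the SetD8 siRNA group (3 arrays) the cells were transfected with siRNA specific for SetD8 (gene Setd8, now Kmt5a), and in the control siRNA group (3 arrays) with non-targeting siRNA. Both groups were transfected at 0 h and again at 24 h, received β-estradiol from 24 h, were harvested at 48 h, and grew with erythropoietin and Kit ligand. All arrays thus came from 1 cell line in the estradiol-treated state, and a comparison with untreated cells was not analysed here. Whether replicates were separate cultures is not stated in the labels, so the p-values reflect the variation among these particular arrays, possibly only technical.

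Entry into mitosis is driven by cyclin-dependent kinase 1 bound to B-type cyclins, switched on by CDC25 phosphatases and reinforced by Polo and Aurora kinases. Kinesins build the spindle and move chromosomes, the spindle checkpoint holds back the anaphase-promoting complex until every kinetochore is attached, and the central spindle then directs cleavage of the cell. Many of these genes are transcribed late in the cell cycle under the MuvB complex, B-MYB, FOXM1 and NF-Y, and maturing erythroblasts pass through a few last divisions before leaving the cycle. SETD8 places the single methyl group on lysine 20 of histone H4, a mark that itself peaks in mitosis.

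Most transcripts of the mitosis genes had lower signals on the SetD8 siRNA arrays than on the control siRNA arrays, by modest amounts, and none passed the test across all genes. The difference, SetD8 siRNA minus control siRNA on the log2 scale, was negative for 36 of the 40 measured genes. This held in both ways of scaling the arrays, against 45.9% of all genes tested when each array was scaled to its 75th percentile and 45.7% after normexp background correction and quantile normalization. With 75th percentile scaling, the setting of the main test, the median difference was −0.57 for the mitosis genes and 0.06 for all genes tested. The medians were −0.37 for the mitosis genes and 0.03 for all genes after normexp and quantile normalization. In bulk RNA, fewer cells in mitosis and less of each transcript per cell cannot be told apart.

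With limma and Benjamini-Hochberg adjustment over all 14420 genes at a threshold of 0.05, 0 of the 40 were called lower and 0 higher with 75th percentile scaling, where 0% of all genes were called in either direction. At an unadjusted limma p under 0.05, 0 of the 40 mitosis genes passed in that setting, against 3.53% of all genes. After normexp and quantile normalization limma again called 0 of the 40, against 0.25% of all genes called lower and 1.41% called higher, and the smallest adjusted p among them was 0.0641, for Kif11. At an unadjusted limma p under 0.05, 25 of the 40 were lower, against 6.75% of all genes, and 1 was higher, against 9.11%.

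How far the arrays of both groups separated depended on the scaling. After normexp and quantile normalization, every SetD8 siRNA array lay below every control siRNA array for 29 of the 40 mitosis genes, against 10.5% of all genes, and above them for 2, against 13.3%. With 75th percentile scaling the groups separated downward for 5 genes, Cdc25c, Kif11, Kif23, Kif4 and Espl1, against 2.56% of all genes, and upward for 0, against 5.86%. The median mitosis gene stood at 3.97, 3.92 and 4.02 on SetD8 siRNA arrays 1, 2 and 3 in that setting, and at 4.57, 5.10 and 3.78 on control siRNA arrays 1, 2 and 3 (log2 signal over the array's 75th percentile). Control 2 was thus far above and control 3 below every SetD8 siRNA array. Without control 3 the genes below the controls with no overlap numbered 36 in place of 5, while the share of all genes that did so became 35.5%. After normexp and quantile normalization the same median was 11.60, 11.62 and 11.64 on the SetD8 siRNA arrays. It was 11.999, 12.04 and 11.97 on the control siRNA arrays, so the groups stood apart and each was tight. Quantile normalization gives all arrays the same distribution of signals, and its part in this tightness was not tested.

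**Figure D1:**
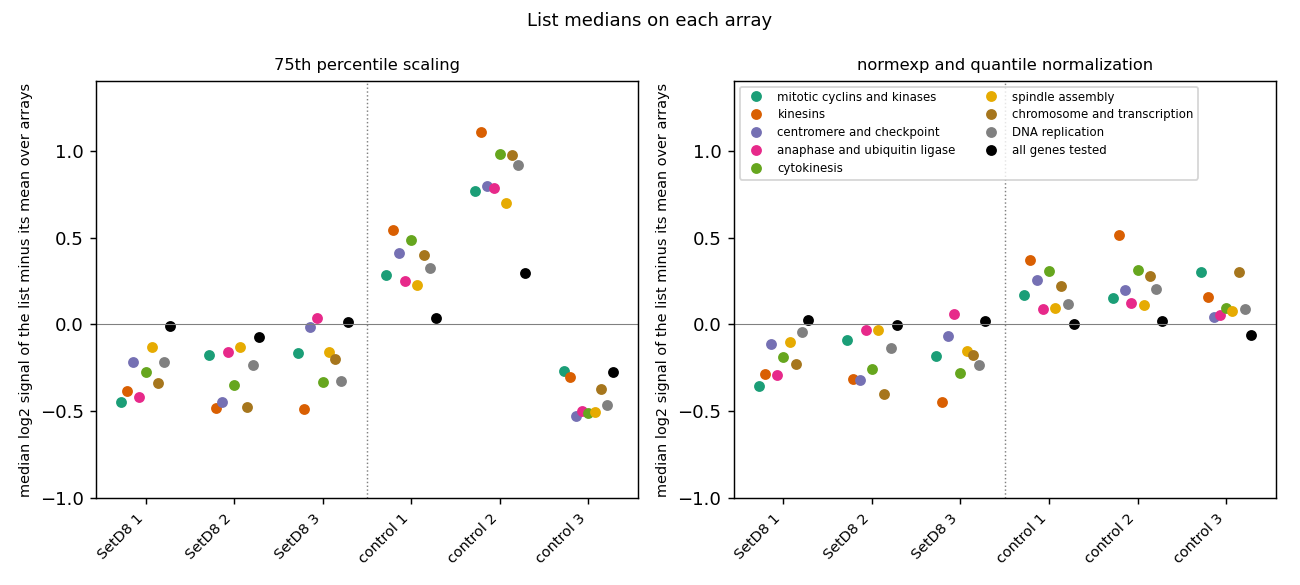
Median log2 signal of each functional group of mitosis genes, of 50 DNA replication genes and of all genes tested on each of the 6 arrays, minus the mean of that median over the arrays (vertical axis, log2), with 75th percentile scaling on the left and after normexp and quantile normalization on the right. On the left, control 2 is the highest array for every group and control 3 lies below 0 for every group. On the right every group lies below 0 on the SetD8 siRNA arrays, except the anaphase group on SetD8 3, and above 0 on the control siRNA arrays.

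Other measures moved with the control arrays. The share of spots well above background was 68.6%, 60.3% and 64.8% on the SetD8 siRNA arrays and 64.1%, 40.2% and 82.5% on controls 1, 2 and 3. The distance from the 75th to the 95th percentile of the processed signal, on the log2 scale, was 4.52, 4.56 and 4.66 on the SetD8 siRNA arrays and 4.80, 5.30 and 4.05 on the control arrays, with the control arrays in the same order as for the mitosis medians above. Control 2 was alone on its slide and was scanned on another day. The part of these features in the differences was not tested, beyond the values without control 2 and within slides that follow. Leaving out control 2 after normexp and quantile normalization gave a median of −0.35 with 35 negative differences. Slide 1, which held SetD8 1, SetD8 2 and control 1, gave −0.43 with 35 negative, and slide 2, which held SetD8 3 and control 3, gave −0.30 with 32 negative. With slide as a block the median was −0.34 with 35 negative, and limma called 0 mitosis genes, against 0.0971% of all genes. Control 2, alone on its slide, adds nothing to the difference in that fit, which therefore rests on fewer arrays. The 2 slides disagreed with 75th percentile scaling: slide 1 gave −0.71, with 40 of 40 negative and an all-gene median of −0.09, and slide 2 gave 0.20, with 10 negative and an all-gene median of 0.32.

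Setd8 itself, the targeted gene, had log2 signals of 9.58, 9.26 and 9.25 on the SetD8 siRNA arrays and 11.50, 11.58 and 11.25 on the control siRNA arrays after normexp and quantile normalization. The difference of −2.08 ± 0.15 (SE) was 4.23-fold lower, with a limma adjusted p of 0.00842. At the 75th percentile scaling it was −2.23 ± 0.48 (SE), with an adjusted p of 0.560. A second Setd8 probe had smaller differences, −1.13 after normexp and quantile normalization and −1.36 with 75th percentile scaling, and with that scaling every SetD8 siRNA array lay below every control siRNA array. Of 18 erythroid marker genes 17 were on the array, and all 17 were well above background on every array. Their summed normalized intensity was 508400 to 556500 on the SetD8 siRNA arrays and 494100 to 524000 on the control siRNA arrays, and 0 of them were called after normexp and quantile normalization. Megakaryocyte markers, 5 of 10 of them well above background on all arrays, summed to 17670 to 31580 on the SetD8 siRNA arrays and 11520 to 21690 on the control siRNA arrays, with 2 called. The granulocyte and macrophage list summed to 22280 to 22490 on the SetD8 siRNA arrays and 21180 to 23330 on the control arrays, with 7 of 13 above background on all arrays and 1 called. The mast cell, lymphoid, and stromal and endothelial lists, with 4, 2 and 3 of 10 genes each above background on all arrays, summed to 1302 to 4831 on the SetD8 siRNA arrays and 796 to 4474 on the control arrays with 0 called, and Ppbp, Ms4a2, Il7r and Ms4a1 were not well above background on any array. The 2 megakaryocyte calls and the granulocyte and macrophage call were lost with slide as a block and with 75th percentile scaling (0 called). The part of these markers in the mitosis values was not tested.

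Promoter sequence was examined because most members had differences of 1 sign and several are known targets of the same late cell-cycle regulators. In human and mouse cells, MuvB binds a cell cycle genes homology region, CHR, read here as TTTGAA or TTCGAA, and NF-Y binds CCAAT. RefSeq promoters (build GRCm38.p6, 250 bases before to 50 after the start) were matched for 34 of the 41 genes, 36 promoters in all, and searched on both strands. The other strand of TTTGAA reads TTCAAA, that of CCAAT reads ATTGG, and TTCGAA reads the same on both. CHR letters were found in 80.6% of the mitosis promoters and 19.2% of all 32851 promoters. CCAAT letters were found in 83.3% of the mitosis promoters and 37.4% of all. Both occurred in 75% of the mitosis promoters, those of 25 genes, and 7.52% of all. A match is only a description of these letters. The 6 windows below run from 100 bases before to 20 after the start and belong to 4 genes with some of the most negative differences and to the 2 genes whose SetD8 siRNA arrays all lay above the control arrays. Capitals mark the CHR and CCAAT letters on either strand. Only promoters that hold such letters were eligible to be printed, so these windows do not show how common the letters are. The windows are chr19:37376282-37376401, plus strand for Kif11, chr9:61946780-61946899, minus strand for Kif23, chr15:102296193-102296312, plus strand for Espl1, chr11:99024170-99024289, minus strand for Top2a, chr2:164769829-164769948, plus strand for Ube2c and chr4:124936898-124937017, minus strand for Cdca8, each printed 5′ to 3′ along the gene.
Kif11: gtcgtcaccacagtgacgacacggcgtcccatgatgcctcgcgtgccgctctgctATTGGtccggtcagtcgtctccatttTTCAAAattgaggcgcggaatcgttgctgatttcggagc
Kif23: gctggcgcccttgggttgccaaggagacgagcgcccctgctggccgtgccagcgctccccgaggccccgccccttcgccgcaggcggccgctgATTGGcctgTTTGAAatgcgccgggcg
Espl1: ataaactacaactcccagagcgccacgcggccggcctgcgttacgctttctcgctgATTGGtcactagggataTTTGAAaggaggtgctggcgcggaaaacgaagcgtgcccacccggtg
Top2a: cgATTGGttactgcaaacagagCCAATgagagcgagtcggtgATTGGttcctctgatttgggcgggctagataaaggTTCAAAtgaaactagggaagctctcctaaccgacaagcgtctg
Ube2c: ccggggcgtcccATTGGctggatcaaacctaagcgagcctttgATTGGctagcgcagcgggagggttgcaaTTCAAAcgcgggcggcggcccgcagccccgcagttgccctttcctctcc
Cdca8: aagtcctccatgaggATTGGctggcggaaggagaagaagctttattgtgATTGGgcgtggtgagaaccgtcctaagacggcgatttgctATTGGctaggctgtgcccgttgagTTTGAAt

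**Figure D2:**
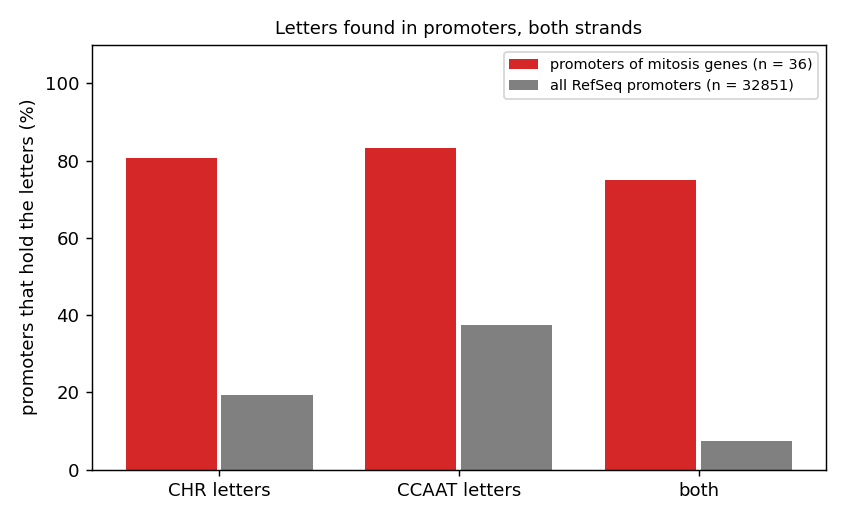
Share of promoters that hold CHR letters, CCAAT letters or both (vertical axis, percent), for 36 promoters of mitosis genes and for all 32851 RefSeq promoters. The mitosis promoters are at 80.6%, 83.3% and 75%, against 19.2%, 37.4% and 7.52% of all promoters.

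The same pair of letters stood in promoters of genes with differences of either sign. Cdca8, Ube2c, Cdc25b and Cdk1, the 4 genes with a positive difference after normexp and quantile normalization, each held both. The arrays of Cdc25b and Cdk1 overlapped, so the sign of those differences is not settled. Birc5, Mad2l1, Pttg1 and Nusap1 held neither in the searched window, and all 4 had negative differences. The arrays of Pttg1 overlapped, however, and the difference of Nusap1, −0.07 ± 0.10, was smaller than its SE. Among the groups, both sets of letters were present for 4 of 5 matched kinesins, 3 of 3 chromosome and transcription genes, 6 of 8 cyclins and kinases, 3 of 4 anaphase genes, 3 of 4 cytokinesis genes, 5 of 8 centromere genes and 1 of 2 spindle assembly genes.

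In what follows, signals on each array are log2 values after normexp and quantile normalization, a difference is SetD8 siRNA minus control siRNA on the same scale with its limma SE (n = 3 arrays each), and every adjusted p is limma's with Benjamini-Hochberg adjustment over all genes. Signals of different probes are not comparable with each other. The exact two-sided permutation p of a single gene cannot fall below 0.1 with 3 against 3 arrays.

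**Figure D3:**
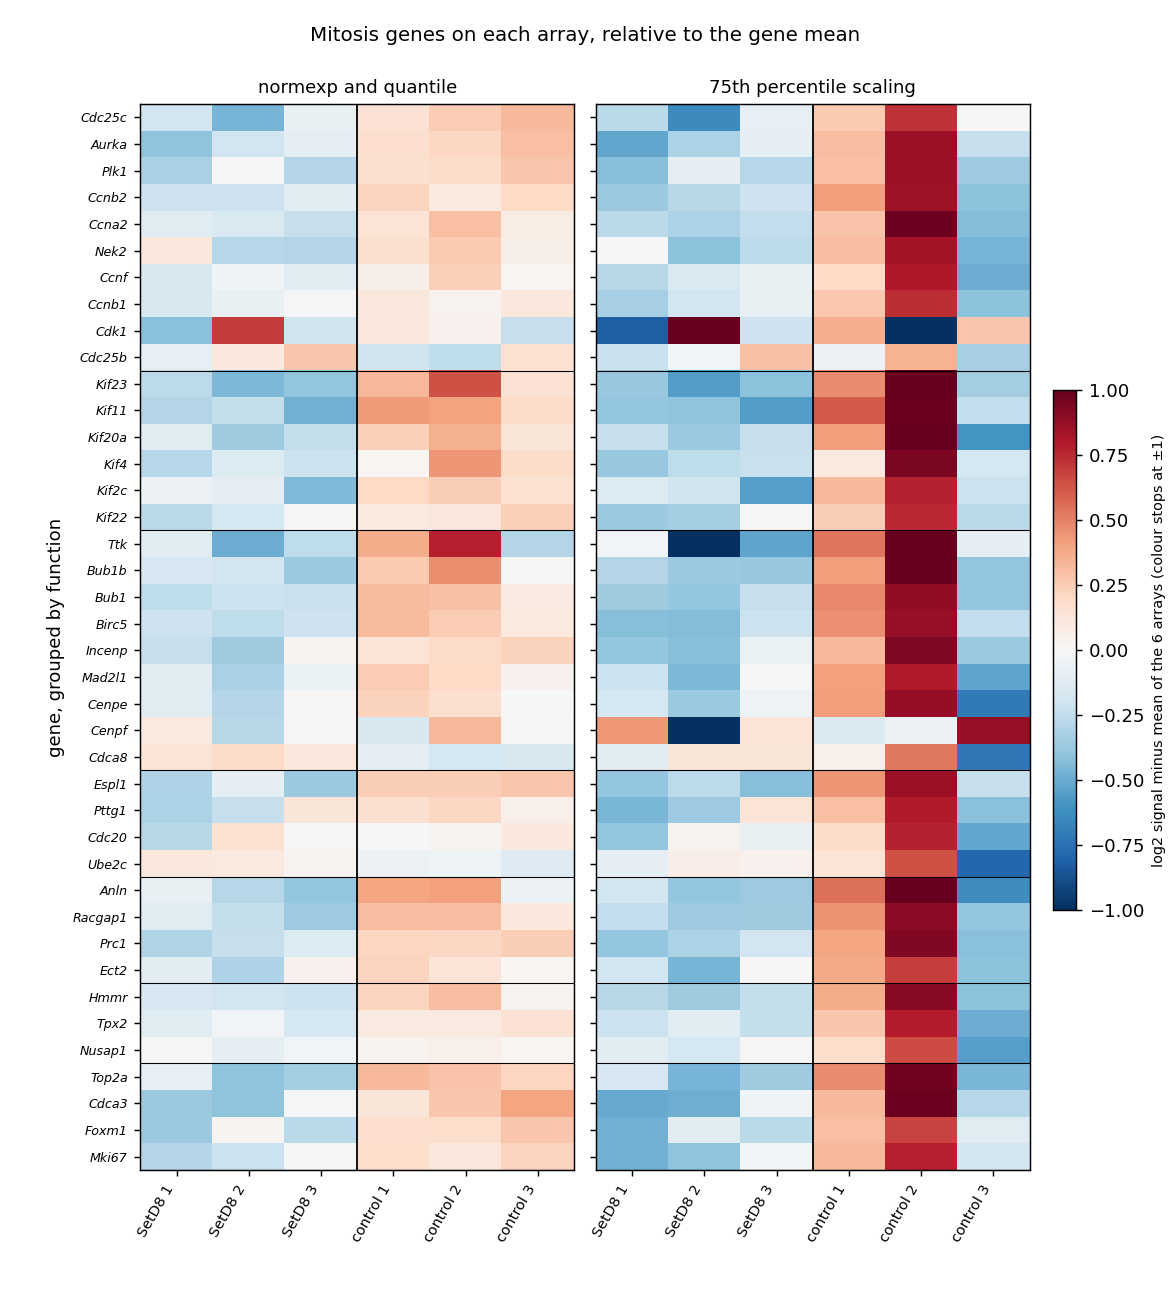
Log2 signal of each of the 40 measured mitosis genes on each array, minus the gene's mean over the 6 arrays (colour, log2, blue low and red high, stopped at ±1), with the 3 SetD8 siRNA arrays left of the 3 control siRNA arrays and genes ordered by function and by difference. After normexp and quantile normalization most genes are blue on all SetD8 siRNA arrays and red on all control siRNA arrays, while with 75th percentile scaling control 3 is blue for most genes and control 2 is deep red.

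Cyclins, kinases and their regulators were mostly lower by a small amount. Of the 10 measured, 8 had a negative difference, with a median of −0.33 (−0.49 with 75th percentile scaling). The SetD8 siRNA arrays were lower with no overlap for 7, against 10.5% of all genes, and for 1 with 75th percentile scaling, against 2.56%. Plk1, the Polo kinase of mitotic entry and exit, read 12.10, 12.42 and 12.13 on the SetD8 siRNA arrays and 12.58, 12.60 and 12.70 on the control siRNA arrays. Its difference was −0.41 ± 0.13, with an adjusted p of 0.178, and every SetD8 siRNA array was below every control array. Aurka, the spindle-pole Aurora kinase, read 12.07, 12.28 and 12.38 on the SetD8 siRNA arrays and 12.64, 12.68 and 12.77 on the control arrays. Its difference of −0.45 ± 0.12 (adjusted p 0.140) likewise came without overlap. Cdc25c, a phosphatase that activates CDK1, read 8.77, 8.49 and 8.89 on the SetD8 siRNA arrays and 9.11, 9.22 and 9.28 on the control arrays, a difference of −0.48 ± 0.14 (adjusted p 0.155). It was 1 of the 5 genes whose groups also stayed apart with 75th percentile scaling, at 0.83, 0.47 and 1.02 on the SetD8 siRNA arrays and 1.36, 1.83 and 1.11 on the control arrays.

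Ccnb1, cyclin B1, read 13.60, 13.69 and 13.74 on the SetD8 siRNA arrays and 13.88, 13.79 and 13.86 on the control arrays. The groups did not overlap, but the difference of −0.17 ± 0.10 (adjusted p 0.516) was smaller than those of Plk1 and Aurka. Its 3 probes gave differences from −0.37 to −0.17, all negative. The related cyclins showed −0.34 for both Ccnb2, cyclin B2, and Ccna2, cyclin A2, and −0.21 for Ccnf, the F-box protein cyclin F, each without overlap. Nek2, a kinase that parts the centrosomes, showed −0.32 with overlapping arrays.

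Cdc25b and Cdk1 differed from the rest of this group in sign. Cdc25b, the phosphatase thought to start CDK1 activation at the centrosome, read 12.75, 12.94 and 13.11 on the SetD8 siRNA arrays and 12.63, 12.57 and 12.98 on the control arrays. The groups overlapped, and the difference was 0.20 ± 0.16 (adjusted p 0.650), though −0.48 with median scaling, which put the median of all genes at −0.46. Cdk1, the kinase of mitotic entry, read 6.43, 7.55 and 6.65 on the SetD8 siRNA arrays and 6.96, 6.90 and 6.63 on the control arrays, so a single array, SetD8 2, was high. Its difference of 0.05 ± 0.30 came from a dim probe that was well above background on 3 SetD8 siRNA and 2 control siRNA arrays, and without SetD8 2 it became −0.29. A further Cdk1 probe, well above background on 0 SetD8 siRNA arrays and 2 control arrays, gave −0.50 and was not kept. Another, not well above background on any array, gave −0.29 and was also not kept, so the probes disagreed in sign. Aurkb, the Aurora kinase of the chromosomal passenger complex, was not measured: its 1 probe was not well above background on any array.

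Kinesins were lower in every member. All 6 had negative differences in both settings, with a median of −0.45 (−0.58 with 75th percentile scaling). The groups did not overlap for 6 of the 6, against 10.5% of all genes, and for 3 with 75th percentile scaling, against 2.56%. Kif11, the plus-end motor that pushes spindle poles apart, read 9.28, 9.34 and 9.09 on the SetD8 siRNA arrays and 9.996, 9.98 and 9.76 on the control siRNA arrays (probe at chr19:37495755-37495814, mm9). The SetD8 siRNA level was 62.8% of the control level, a difference of −0.67 ± 0.13 with an adjusted p of 0.0641. Kif23, the motor subunit of centralspindlin, read 9.25, 9.07 and 9.12 on the SetD8 siRNA arrays and 9.84, 10.15 and 9.66 on the control arrays (probe at chr9:61767492-61767732, mm9). That was 59.98% of the control level, a difference of −0.74 ± 0.15 with an adjusted p of 0.0786 and the most negative among the mitosis genes. For both genes every SetD8 siRNA array was also below every control array with 75th percentile scaling. Kif11 then read 1.43, 1.42 and 1.25 on the SetD8 siRNA arrays and 2.43, 2.80 and 1.57 on the control arrays. Kif23 read 1.45, 1.26 and 1.42 on the SetD8 siRNA arrays and 2.30, 3.04 and 1.47 on the control arrays, where control 3 was only just above SetD8 1. The promoter windows of both genes, printed above because they hold such letters, have CHR and CCAAT letters close to the start.

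The difference of Kif11 was −0.69 on slide 1 and −0.66 on slide 2, and that of Kif23 was −0.68 and −0.54. With 75th percentile scaling the slides differed more, at −1.01 and −0.31 for Kif11 and at −0.94 and −0.058 for Kif23. The adjusted p with slide as a block was 0.136 for Kif11 and 0.178 for Kif23. Among the other kinesins, Kif20a, which carries the passenger complex to the central spindle, showed −0.48, and Kif4, a chromosome-arm motor, −0.43. Kif2c, a microtubule depolymerase at centromeres, showed −0.40, with −0.27 on slide 1 and −0.59 on slide 2. Kif22, which pushes chromosome arms outward, showed −0.30.

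**Figure D4:**
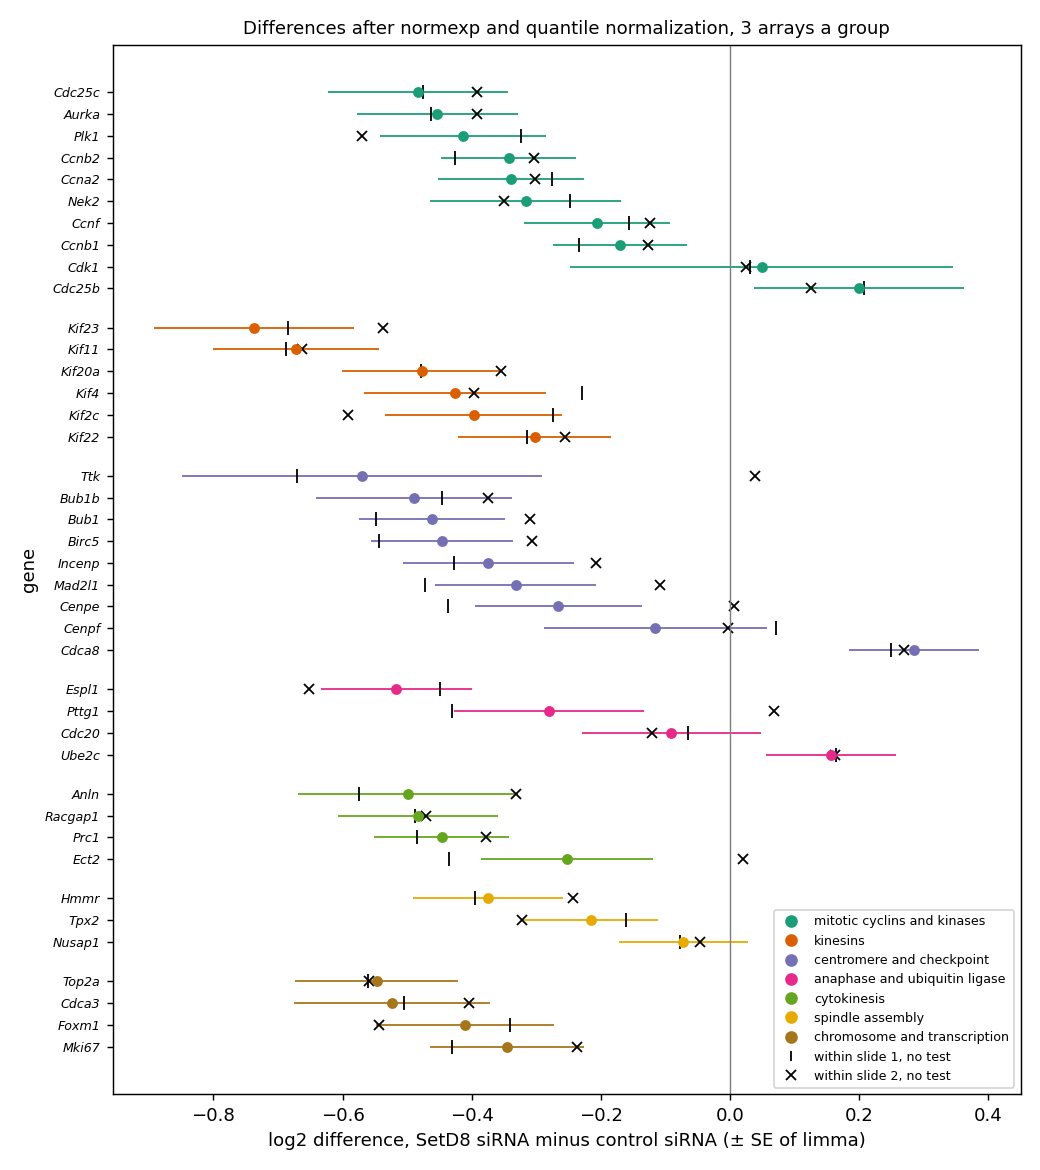
Log2 difference, SetD8 siRNA minus control siRNA, after normexp and quantile normalization for the 40 measured mitosis genes (points, with bars of ± 1 limma SE), coloured by function, with the value within slide 1 (vertical tick) and within slide 2 (cross). Differences run from −0.74 for Kif23 to 0.29 for Cdca8, and 36 of the 40 points lie below 0.

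Centromere and checkpoint genes were lower with 1 exception. Of the 9 measured, 8 were negative, with a median of −0.37 (−0.59 with 75th percentile scaling). The SetD8 siRNA arrays were lower without overlap for 5, against 10.5% of all genes, and for 0 with 75th percentile scaling, against 2.56%. Bub1, a checkpoint kinase at kinetochores, read 9.88, 9.92 and 9.91 on the SetD8 siRNA arrays and 10.45, 10.43 and 10.22 on the control siRNA arrays. The SetD8 siRNA arrays were nearly equal, and the difference was −0.46 ± 0.11 (adjusted p 0.108). Bub1b, the checkpoint protein BUBR1, read 10.16, 10.14 and 9.96 on the SetD8 siRNA arrays and 10.60, 10.80 and 10.33 on the control arrays, a difference of −0.49 ± 0.15 (adjusted p 0.178). Both genes had no overlap.

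Birc5, survivin of the chromosomal passenger complex, read 14.31, 14.26 and 14.31 on the SetD8 siRNA arrays and 14.83, 14.77 and 14.61 on the control arrays. Its difference was −0.45 ± 0.11 (adjusted p 0.109) without overlap, and its 3 probes ranged from −0.65 to −0.41. Incenp, the scaffold of that complex, showed −0.37, also without overlap. Cdca8, borealin of the same complex, went the other way. It read 15.14, 15.20 and 15.12 on the SetD8 siRNA arrays and 14.92, 14.83 and 14.85 on the control arrays, so all SetD8 siRNA arrays were above all control arrays (probe at chr4:124595809-124595868, mm9). The difference was 0.29 ± 0.10 (adjusted p 0.228), and the values within slides 1 and 2 were 0.25 and 0.27. Its second probe gave 0.20 with overlapping arrays, and −0.021 with 75th percentile scaling. The arrays of Cdca8 overlapped with 75th percentile scaling, at 7.42, 7.64 and 7.64 on the SetD8 siRNA arrays and 7.57, 8.04 and 6.80 on the control arrays, and with median scaling the difference was −0.42, close to the all-gene median of −0.46.

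The remaining centromere genes varied more. Mad2l1, which encodes MAD2, an inhibitor of the anaphase activator CDC20, showed −0.33 without overlap. Ttk, the checkpoint kinase MPS1, showed −0.57 ± 0.28 from control values that ran from 6.95 to 8.03, and its value was −0.67 on slide 1 and 0.04 on slide 2. Cenpe, a kinetochore motor, showed −0.27, with −0.44 on slide 1 and 0.01 on slide 2. Cenpf, a kinetochore and nuclear matrix protein, showed −0.12 from a dim probe, well above background on 5 arrays. The arrays of Ttk, Cenpe and Cenpf overlapped.

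Genes of anaphase and ubiquitin ligation were split, with 3 of 4 negative and a median of −0.19 (−0.37 with 75th percentile scaling). Espl1, separase, the protease that cuts cohesin, read 9.85, 10.05 and 9.78 on the SetD8 siRNA arrays and 10.40, 10.40 and 10.43 on the control siRNA arrays. That was 69.9% of the control level, a difference of −0.52 ± 0.12 (adjusted p 0.0909) without overlap, with −0.45 on slide 1 and −0.65 on slide 2. Pttg1, securin, which holds separase inactive, read 12.68, 12.76 and 13.11 on the SetD8 siRNA arrays and 13.15, 13.20 and 13.04 on the control arrays. SetD8 3 lay above control 3, so the difference of −0.28 ± 0.15 (adjusted p 0.436) came with overlap, and it was −0.43 on slide 1 and 0.07 on slide 2.

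Cdc20, the activator of the anaphase-promoting complex, read 13.77, 14.20 and 14.04 on the SetD8 siRNA arrays and 14.05, 14.07 and 14.16 on the control arrays. The groups overlapped fully, with a difference of −0.09 ± 0.14 (adjusted p 0.825), and without SetD8 1 it became 0.02. Ube2c, the ubiquitin-conjugating enzyme of the same complex, read 14.33, 14.33 and 14.26 on the SetD8 siRNA arrays and 14.17, 14.19 and 14.10 on the control arrays (probe at chr2:164598016-164598075, mm9). All SetD8 siRNA arrays were above all control arrays by a small margin, with a difference of 0.16 ± 0.10 (adjusted p 0.539). Both probes were positive, at 0.13 and 0.16, but the arrays of the 0.13 probe overlapped. With 75th percentile scaling that probe gave −0.083. The difference of Ube2c was 0.01 with 75th percentile scaling and turned negative, at −0.11, with normexp and the 75th percentile, and at −0.50 with median scaling.

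The 4 cytokinesis genes were all negative, with a median of −0.47 (−0.61 with 75th percentile scaling). The SetD8 siRNA arrays were lower without overlap for 3, against 10.5% of all genes, and for 0 with 75th percentile scaling, against 2.56%. Prc1, which bundles antiparallel microtubules of the central spindle, read 11.61, 11.68 and 11.78 on the SetD8 siRNA arrays and 12.13, 12.12 and 12.16 on the control siRNA arrays. Its difference of −0.45 ± 0.10 had an adjusted p of 0.0972, and the control arrays were nearly equal. Racgap1, the GTPase-activating partner of Kif23 in centralspindlin, read 11.99, 11.87 and 11.74 on the SetD8 siRNA arrays and 12.42, 12.42 and 12.21 on the control arrays, a difference of −0.48 ± 0.12 (adjusted p 0.120). Ect2, the exchange factor that activates RhoA at the cleavage site, read 9.79, 9.59 and 9.94 on the SetD8 siRNA arrays and 10.13, 10.03 and 9.92 on the control arrays. SetD8 3 lay just above control 3, and its difference was −0.25 ± 0.13 (adjusted p 0.440), with −0.44 on slide 1 and 0.02 on slide 2. Anln, the ring scaffold anillin, showed −0.50 without overlap on values from 10.40 to 10.72 on the SetD8 siRNA arrays and 10.73 to 11.20 on the control arrays.

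Spindle assembly genes differed little, apart from Hmmr. The median of the 3 was −0.22 (−0.38 with 75th percentile scaling). All 3 were lower without overlap, against 10.5% of all genes, and 0 were with 75th percentile scaling, against 2.56%. Tpx2, which activates Aurka and seeds spindle microtubules, read 11.83, 11.92 and 11.77 on the SetD8 siRNA arrays and 12.04, 12.04 and 12.09 on the control siRNA arrays, a difference of −0.22 ± 0.10 (adjusted p 0.389). It was the only member whose kept probes disagreed in sign, since a dimmer probe gave 0.02. Hmmr, a spindle-pole protein, read 11.59, 11.57 and 11.55 on the SetD8 siRNA arrays and 11.98, 12.07 and 11.79 on the control arrays, a difference of −0.37 ± 0.12 (adjusted p 0.178). Nusap1, a microtubule-binding protein, showed −0.07, with values from 11.893 to 11.997 on the SetD8 siRNA arrays and 12.005 to 12.038 on the control arrays.

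The 4 genes of chromosome structure and transcription were all negative, with a median of −0.47 (−0.63 with 75th percentile scaling). All 4 were lower without overlap, against 10.5% of all genes, and 0 were with 75th percentile scaling, against 2.56%. Top2a, the topoisomerase that untangles sister chromatids, read 11.99, 11.67 and 11.73 on the SetD8 siRNA arrays and 12.39, 12.35 and 12.29 on the control siRNA arrays. That was 68.4% of the control level, a difference of −0.55 ± 0.13 (adjusted p 0.0957), and −0.56 on each of the 2 slides. Cdca3, a protein needed for mitotic entry and destroyed through the anaphase-promoting complex, read 11.18, 11.14 and 11.54 on the SetD8 siRNA arrays and 11.67, 11.82 and 11.94 on the control arrays, a difference of −0.52 ± 0.15 (adjusted p 0.157). Both genes thus had their highest SetD8 siRNA array below their lowest control array.

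Foxm1, a transcription factor of G2/M genes, read 9.35, 9.75 and 9.46 on the SetD8 siRNA arrays and 9.89, 9.90 and 10.001 on the control arrays. Its difference was −0.41 ± 0.14 (adjusted p 0.207), and a dimmer probe gave −0.16. Mki67, the Ki-67 protein that coats mitotic chromosomes and marks cycling cells, read 14.05, 14.13 and 14.33 on the SetD8 siRNA arrays and 14.52, 14.46 and 14.57 on the control arrays. Its difference was −0.35 ± 0.12 (adjusted p 0.221).

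**Figure D5:**
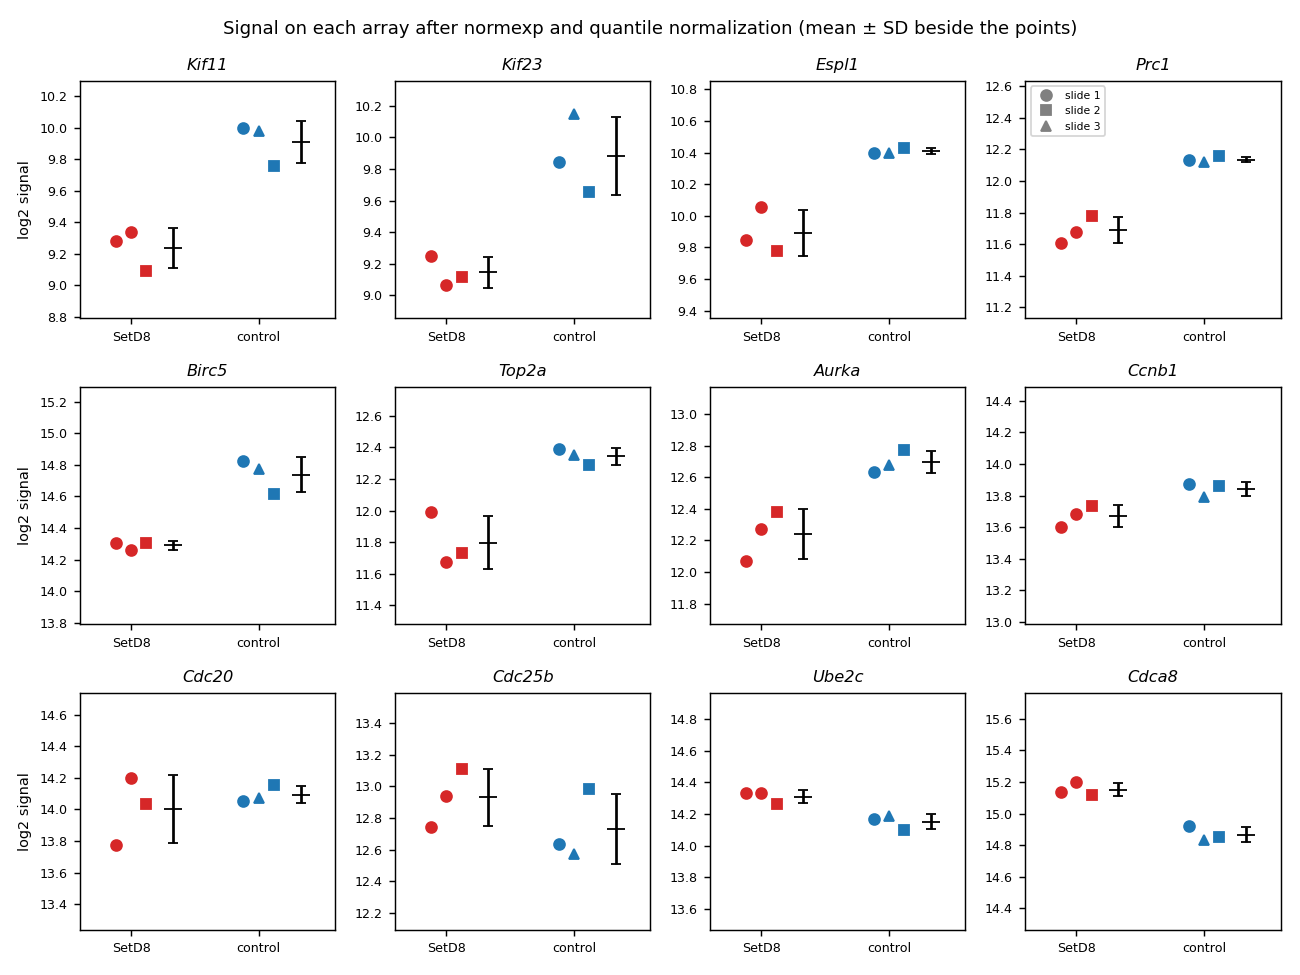
Log2 signal of 12 mitosis genes on each array after normexp and quantile normalization (one point per array, SetD8 siRNA in red left of control siRNA in blue, marker shape by slide, with the group mean ± SD beside the points). Kif11, Kif23, Espl1, Prc1, Birc5, Top2a, Aurka and Ccnb1 have all SetD8 siRNA points below the control points, Cdc20 and Cdc25b overlap, and Ube2c and Cdca8 have all SetD8 siRNA points above.

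The functional groups had medians from −0.47 to −0.19 that overlapped in their members, and differences between the groups were not tested. Each gene was also expressed relative to the median mitosis gene on the same array, a measure chosen after its values had been seen, which removes shifts shared by the members. On it Kif11 and Kif23 were lower on every SetD8 siRNA array than on every control siRNA array in both settings. They were the 2 of 40 genes that were lower without overlap after normexp and quantile normalization, against 0.922% of all genes, and stood among 8 with 75th percentile scaling, against 1.53%. Higher without overlap were 7 of 40 after normexp and quantile normalization, against 52% of all genes, and 5 with 75th percentile scaling, against 35.9%. The 5, Ccnf, Cdca8, Ube2c, Tpx2 and Nusap1, were among the 7. Those shares of all genes are large because the subtracted median was itself lower on the SetD8 siRNA arrays. The shares of all genes lower without overlap are small for the same reason. Before the subtraction they were 10.5% after normexp and quantile normalization and 2.56% with 75th percentile scaling. The 2 and 8 lower genes thus cannot be read as an excess over all genes.

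The values for Cdca8 relative to the median mitosis gene were 3.54, 3.57 and 3.48 on the SetD8 siRNA arrays and 2.92, 2.79 and 2.88 on the control siRNA arrays. For Ube2c they were 2.73, 2.71 and 2.62 on the SetD8 siRNA arrays and 2.17, 2.15 and 2.13 on the control arrays. For Kif11 they were −2.32, −2.29 and −2.55 on the SetD8 siRNA arrays and −2.003, −2.06 and −2.22 on the control arrays. Relative to the median mitosis gene, then, Cdca8 and Ube2c stood higher and Kif11 lower after SetD8 siRNA. Such a ratio within an array shows unequal change and not which of the genes changed.

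Mitosis genes outside the 41 and DNA replication genes were also mostly negative. Of 92 measured other mitosis genes, 79 were negative after normexp and quantile normalization, with a median of −0.35. Limma called 2 of them lower, against 0.25% of all genes, and 1 higher, against 1.41%. Among 37 kinetochore and cohesion genes the median was −0.39, and Spc24, a subunit of the NDC80 complex, was called lower (−0.76 ± 0.11, adjusted p 0.0337). Among 30 further kinases, regulators and ubiquitin ligase genes the median was −0.24, and Fbxo5, the EMI1 inhibitor of the anaphase-promoting complex, was called lower (−0.82 ± 0.11, adjusted p 0.0302). Among 25 further motor and spindle genes the median was −0.34, and Psrc1, which encodes a microtubule-associated protein, was called higher (1.44 ± 0.13, adjusted p 0.00950). All 3 calls were lost with slide as a block, at limma adjusted p of 0.137 for Spc24, 0.116 for Fbxo5 and 0.0572 for Psrc1. Their differences changed little in that fit, to −0.72, −0.81 and 1.48. Whether slides or the fewer arrays behind that fit account for the lost calls was not tested. Of 50 DNA replication genes, 47 were negative, with a median of −0.37. Rfc2, a subunit of the clamp loader, was called higher (0.72 ± 0.11, adjusted p 0.0393, and 0.139 with slide as a block), 1 of 50 against 1.41% of all genes, and 0 were called lower. Limma called 0 of all these genes with 75th percentile scaling.

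Calls among the 41 genes appeared under 2 changes of the test. Both were applied after normexp and quantile normalization. With the test restricted to probes detected above background on each of the 6 arrays, which left 10822 genes, limma called 5 lower: Kif11, Kif23, Espl1, Top2a and Prc1, at adjusted p of 0.0303 to 0.0494, against 1.74% of all genes called lower and 4.08% called higher. When limma's moderation used an intensity trend and robust fitting, 14 were called lower and 1, Cdca8, higher, the last at an adjusted p of 0.0326, against 2.53% of all genes called lower and 4.41% called higher. The 14 were Aurka, Birc5, Bub1, Ccnb2, Cdca3, Espl1, Kif11, Kif20a, Kif23, Mki67, Plk1, Prc1, Racgap1 and Top2a, with adjusted p from 0.0104 for Birc5 to 0.0490 for Mki67. Neither change led to a call among them with 75th percentile scaling.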

How the data were processed

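RNA from 3 SetD8 siRNA and 3 control siRNA samples was hybridised to 1-colour Cy3 Agilent arrays. Each array's deposited file gives a linear fluorescence intensity per spot, written by Agilent Feature Extraction, and places probes on mm9, per the file headers. A deposited matrix of intensity held the same processed signals, 100% of its values matching within 0.006. The submitters' processing notes name limma. The authors' normalization and test are not given in the sources here.

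Control and outlier spots (139 to 176 outliers per array) were left out and replicate spots averaged, which gave 55681 probes. Probes were named through a RefSeq gene table (GRCm38.p6), 24462 of them matching none. Probes had to be well above background (at least 0.5 of their spots) on every array of either group, and each gene was taken as its kept probe with the highest mean. Of the 60 probes of the 41 genes, 55 were kept and 53 were above background on all arrays.

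The main setting was log2 of the processed signal minus each array's 75th percentile, tested with limma 3.58.1 in R 4.3.3 (lmFit and eBayes, two-sided, Benjamini-Hochberg, threshold 0.05). The second was normexp (offset 50) with quantile normalization, whose offset makes the changes of dim genes smaller. The scripts were tested on simulated data. Python 3.11.15, pandas 2.3.3, numpy 2.4.6 and matplotlib 3.10.9 were also used. Groups came from sample titles.

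The members and gene lists were chosen with earlier results of these data known. The rule for genes with values on every array took, in each functional group, the 2 with the smallest limma p after normexp and quantile normalization, every gene with a positive difference there, and 12 chosen by name. Of the other lists it took every gene past the threshold. Alternatives are given in the closing section. The number of arrays limits the precision. Exon or UTR positions of probes and protein sequences were not used here.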

Additional observations from a re-analysis of the deposited data

How the results depend on the processing

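Results of every setting were set against the 75th percentile scaling. Of the comparisons over lists, counts and Setd8, 335 of the values outside the leave-one-out settings were scored as unchanged. A further 40 moved, 11 gained a call and 12 reversed. A list median counted as unchanged if it kept its sign and shifted by no more than the within-group SD of its array medians. By that score the anaphase median, −0.37 in the main setting, was unchanged at −0.026 within slide 2 after normexp and quantile normalization. Counts were scored by a set ratio. For single genes 515 kept their direction and call, or within a slide their direction and rough size. Another 9 moved, 18 gained a call and 31 reversed. The fits with array weights were set aside, since the weight of control 1 ran to 1963000 in the main setting and to 47.58 after normexp and quantile normalization. Their medians of the mitosis genes were −0.62 and −0.38. Signal over background limits Aurkb, which has no value, and Cdk1 and Cenpf, each above background on 5 arrays. The causes of the changes below were not tested, except that stricter filters test fewer genes and within-slide values use fewer arrays.

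Within slide 2 with 75th percentile scaling (SetD8 3 against control 3, no test), 10 of the 40 measured genes were negative and the median was 0.20. The medians were 0.20 for cyclins and kinases, −0.052 for kinesins, 0.16 for centromere, 0.50 for anaphase, 0.25 for cytokinesis, 0.25 for spindle assembly and 0.13 for chromosome and transcription genes. They were 0.25 for other kinetochore genes, 0.33 for other motors, 0.29 for other kinases and regulators and 0.14 for DNA replication. Reversed genes there were Ccnb1 (0.34), Cdk1 (−0.48), Plk1 (0.077), Aurka (0.13), Bub1 (0.16), Bub1b (0.014), Birc5 (0.028), Cdc20 (0.44), Pttg1 (0.56), Ect2 (0.41), Racgap1 (0.028), Prc1 (0.23), Tpx2 (0.25), Hmmr (0.17), Top2a (0.10), Mki67 (0.17) and Cdca3 (0.24), and Setd8 was −1.38. Also reversed there, to positive values, were Ccna2 (0.19), Ccnb2 (0.20), Ccnf (0.42), Nek2 (0.20), Kif20a (0.37), Kif22 (0.26), Mad2l1 (0.51), Cenpe (0.66), Incenp (0.30), Anln (0.26) and Nusap1 (0.56). Within slide 1 Cdk1 was −0.017, Cdc25b −0.064, Cdca8 −0.047 and Ube2c −0.15. Slide 2 after normexp and quantile normalization gave 0.0016 for other motors, 0.069 for Pttg1 and 0.021 for Ect2.

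Median scaling put the members at −1.08, cyclins and kinases at −1.001, kinesins at −1.09, centromere genes at −1.10, anaphase genes at −0.88, spindle assembly at −0.89 and chromosome and transcription genes at −1.14. Other kinetochore genes were at −1.05, other motors at −0.998, other kinases and regulators at −0.91 and DNA replication at −1.09, while the median of all genes was −0.46. Cdk1 (−0.19), Cdc25b (−0.48), Cdca8 (−0.42) and Ube2c (−0.50) turned negative. With slide as a block Cdk1 was −0.22, and −0.32 with the scaling over detected probes added. Ube2c was −0.11 with normexp and the 75th percentile and −0.038 as the mean of its kept probes.

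Counts of all genes called higher and lower, 0 and 0 in the main setting, were 203 and 36 after normexp and quantile normalization. On top of that, trend and robust moderation gave 636 and 365, and 14 mitosis genes lower and 1 higher. Testing only probes above background on all arrays gave 441 and 188, with 5 mitosis genes lower, the mean of probes 167 and 28, slide as a block 13 and 1, and an offset of 16 gave 117 and 10. With 75th percentile scaling, only probes above background on all arrays gave 121 and 14, slide as a block 118 and 13, the percentile over detected probes 121 and 10, normexp 47 and 2, trend and robust moderation 15 higher, and quantile normalization of the processed signal 44 and 3. Setd8, at −2.23 in the main setting, passed the threshold under these settings at −2.08 (normexp and quantile, also with trend or the filter), −1.60 (mean of probes), −2.04 (slide block), −2.14 (offset 16), −2.23 (filter and normexp with the 75th percentile), −1.95 (slide block with 75th percentile scaling), −2.11 (detected probes) and −2.10 (quantile alone).

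Leaving out each array in turn gave 0 to 44 genes called higher and 0 to 45 lower in the main setting, the highest without control 2. The ranges after normexp and quantile normalization were 0 to 178 and 0 to 38, with 88 and 7 without control 2 and the highest without control 3. Mitosis genes called stayed at 0, their median ran from −0.85 to −0.27 and from −0.38 to −0.35, and Setd8 from −2.69 to −1.85 and from −2.19 to −2.01 (−2.18 without control 3). In the main setting Cdk1 ran from −0.35 to 0.81, Cdc25b from −0.13 to 0.21, Cdca8 from −0.24 to 0.38, Cdc20 from −0.62 to 0.022 and Ube2c from −0.38 to 0.33. Cdk1 was −0.16 without control 2 and −0.35 without SetD8 2, and Cdc20 was 0.022 without control 2. Ube2c was −0.024 without SetD8 2, −0.011 without SetD8 3 and −0.38 without control 3, Cdc25b −0.11 without SetD8 3 and −0.13 without control 3, and Cdca8 −0.24 without control 3. The values after normexp and quantile normalization were −0.052 without control 3 and −0.29 without SetD8 2 for Cdk1, and 0.024 without SetD8 1 for Cdc20.

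The replicate numbers did not pair the samples: deviations of same-numbered samples correlated at 0.24, −0.27 and −0.37 in the main setting and at 0.18, −0.25 and −0.19 after normexp and quantile normalization. With the replicate number as a block limma called 0 of all genes in either setting (339 and 1977 at an unadjusted p under 0.05), and 0 mitosis genes, with a median of −0.57 and −0.37.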
